A study of Mus musculus with 34 samples.

Results

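p53 and its target genes were followed in J1 mouse embryonic stem cells (mESCs) that had lost leukemia inhibitory factor (LIF), with and without Royalactin. The members are Trp53, the gene for p53, and 9 genes chosen by name because p53 is known to induce them: Cdkn1a, Mdm2, Ccng1, Bax, Bbc3, Pmaip1, Zmat3, Sesn1 and Trp53inp1. All 10 symbols were found among the 23366 rows of the deposited table. J1 is an established mESC line that needs LIF to stay undifferentiated in serum. RNA-seq was analysed in 4 libraries: 2 of cells in serum/-LIF and 2 of cells in serum/-LIF + Royalactin, which received purified Royalactin, a honey bee royal jelly protein, at 0.5 mg/ml. All cultures shared serum medium, gelatin-coated plates, the absence of LIF and a labelled passage number of 40, which differs from the passage named in a legend of the study. The series text calls the experiments at least biological duplicates, and no serum/+LIF RNA-seq library was analysed here, so values with Royalactin are set only against LIF withdrawal. Because all 4 libraries come from 1 cell line, the samples hold no variation between lines.

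p53 is a transcription factor that is made continuously and destroyed quickly, because the ubiquitin ligase Mdm2 marks it for degradation and Mdm2 is itself a p53 target. When DNA damage or other stress stabilises the protein, it binds DNA as a tetramer and induces genes that halt the cell cycle, start apoptosis, or adjust metabolism and repair. mESCs are known for abundant p53 and for a short G1 phase with little p21, the product of Cdkn1a. Since p53 activity is set mainly by protein stability, the level of Trp53 mRNA does not measure it.

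The response element through which p53 acts is a pair of adjoining decamers, each with a C and a G at fixed places, and it is shown here because the members are grouped by regulation through it. Within 5000 bases of the annotated gene start (mm9, GENCODE), where 1 strand covers both because the element reads alike on either, a match with at most 2 mismatches outside the fixed C and G and a spacer of 0 or 1 base was found for 7 of the 10 members and for 22.1% of 22350 protein-coding genes. At most 1 mismatch was found in 4 members and 4.43% of genes, and none in 2 members, Zmat3 and Trp53inp1, and 0.434% of genes. The genes were named as p53 targets, so these shares describe the choice of genes. In the sequences below, read on the strand of the gene, capitals mark the fixed C and G of each decamer.
Cdkn1a (chr17:29227873-29227892, plus strand): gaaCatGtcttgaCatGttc
Ccng1 upstream (chr11:40568964-40568983, minus strand): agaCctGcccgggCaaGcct
Ccng1 intronic (chr11:40568438-40568457, minus strand): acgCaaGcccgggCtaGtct
Zmat3 intronic (chr3:32263253-32263272, minus strand): aaaCaaGcccaggCatGtct
Trp53inp1 (chr4:11082259-11082279, plus strand): aaaCatGtccaggaCtaGcct
Bax upstream (chr7:52722449-52722469, minus strand): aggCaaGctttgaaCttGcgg
Bax exonic (chr7:52721944-52721963, minus strand): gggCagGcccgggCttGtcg
Positions are those of the middle of a match relative to the annotated gene start, negative upstream. The Cdkn1a match lay at -41 from the first annotated start and at -2834 from the start of another Cdkn1a transcript, Cdkn1a-001. The Ccng1 matches lay at -161 and, in an intron, at 365, whereas that of Zmat3 without a mismatch lay at 1337, also in an intron. For Trp53inp1 the match lay at -1309. Bax had matches at -191 and, in an exon, at 314, and Pmaip1 had 1 match at -164, each with 2 mismatches. Trp53 itself had 1 match, with 2 mismatches, at -3642. Zmat3 had 2 further matches, at -4483 with 1 mismatch and at 1327 with 2 mismatches, the latter overlapping the one shown. Mdm2, Bbc3 and Sesn1 had no match of these letters in this window, and no factor binding was measured. In the RefSeq promoter windows (GRCm38.p6, 250 bases before to 50 after a start), 0.682% of 32851 windows held such a match, against 3 of the 11 windows of the 7 members listed there. That of Ccng1, the member with the smallest p-value between the cultures, is printed with the match in capitals.
Ccng1 promoter (GRCm38.p6, chr11:40755237-40755536, minus strand): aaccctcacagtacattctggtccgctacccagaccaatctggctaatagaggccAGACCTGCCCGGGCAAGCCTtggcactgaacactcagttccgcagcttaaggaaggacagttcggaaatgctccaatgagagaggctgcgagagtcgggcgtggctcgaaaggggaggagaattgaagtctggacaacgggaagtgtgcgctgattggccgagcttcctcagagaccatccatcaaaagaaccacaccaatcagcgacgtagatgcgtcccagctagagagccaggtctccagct

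**Figure D1:**
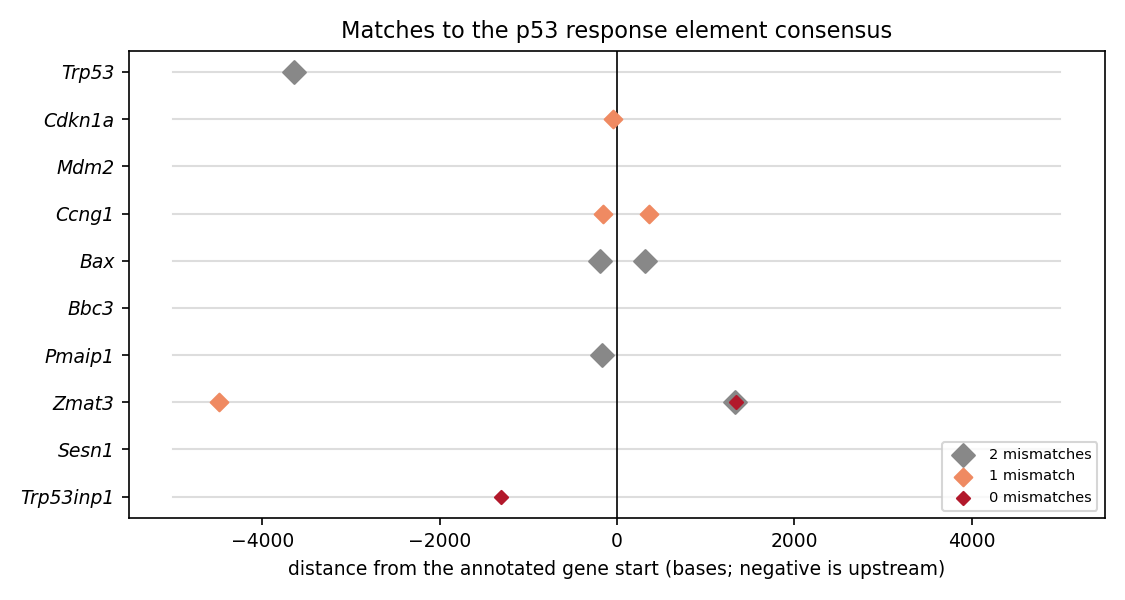
Matches to the p53 response element around the gene starts of the 10 members, by distance in bases (horizontal axis, negative upstream) and number of mismatches (colour). The matches of Cdkn1a, Ccng1, Bax and Pmaip1 lay within 365 bases of the start, and Mdm2, Bbc3 and Sesn1 had none.

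Before the members, the libraries themselves were checked. The reads assigned to genes numbered 14737796 to 17597818 in a library, or 7878527 to 15999458 leaving out the 45S ribosomal precursor Rn45s, which took 46.6% and 21.6% of reads in serum/-LIF replicates 1 and 2 and 38.4% and 9.08% in serum/-LIF + Royalactin replicates 1 and 2. The share was thus higher in replicate 1 of both cultures. All 7 pluripotency markers of the label check were present. Their summed normalized counts were 8208 and 8470 in serum/-LIF and 17399 and 18680 with Royalactin. In limma, 5 of 7 were higher at a Benjamini-Hochberg adjusted p under 0.05, beside 0.493% of all genes tested that passed in either direction. Both Royalactin libraries lay above both serum/-LIF libraries for 6 of 7. The exception was Pou5f1, the most abundant, at 4996 and 5407 in serum/-LIF and 5140 and 7453 with Royalactin. The 10 fibroblast markers summed to 202 and 100 in serum/-LIF and 117 and 92.9 with Royalactin, with Postn and Pdgfrb at 0 in every library. Of the 4 that were tested, 1 was lower with Royalactin at an unadjusted limma p under 0.05 and at least 2-fold, beside 3.61% of all genes tested. This was Dcn, at 37.4 and 31.1 in serum/-LIF and 0 in both Royalactin libraries (adjusted p = 0.422 by limma and Benjamini-Hochberg). Pdgfra (0 to 52.2), Thy1 (29.6 to 45.3) and Fbln2 (6.21 to 37.4) overlapped between the cultures. Of the 4 tested, 2 had a positive and 2 a negative log2 fold change. Below the filter, Col1a1 (12 and 11.4 against 0 and 4.13) and Col3a1 (21.4 and 6.21 against 0 and 3.44) were lower in both Royalactin libraries. Col1a2 (0 and 1.04 against 10.1 and 0) and Lum (0 and 11.4 against 0 and 0) were not separated. The part of such cells in the results was not tested. Of 4 blood markers, 3 were at 0 in every library, and the fourth, Ptprc, reached 1.34. In bulk RNA, fewer cells that express a gene and less RNA per cell cannot be told apart.

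The levels of the members spanned a wide range. On the scale of normalized counts per kilobase of exon, the mean over the 4 libraries was highest for Ccng1 (1734, range 1189 to 2744), followed by Bax (1022, range 762 to 1337) and Trp53inp1 (690, range 608 to 741). Pmaip1 (439), Mdm2 (344) and Trp53 (321) came next, and Zmat3 (139), Bbc3 (96.8), Cdkn1a (76.7) and Sesn1 (63.2) were lowest. The library ranges of Bax and Trp53inp1 did not overlap, nor did those of Trp53inp1 and Pmaip1, while every other pair of neighbours in this order overlapped. Ccng1 was above 97.2% of tested genes per kilobase, Trp53 above 83.5% and Cdkn1a above 53.3%. The gene for the cell cycle inhibitor p21 was therefore at the middle of expressed genes in these cells, while the cyclin G1 gene was near the top.

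**Figure D2:**
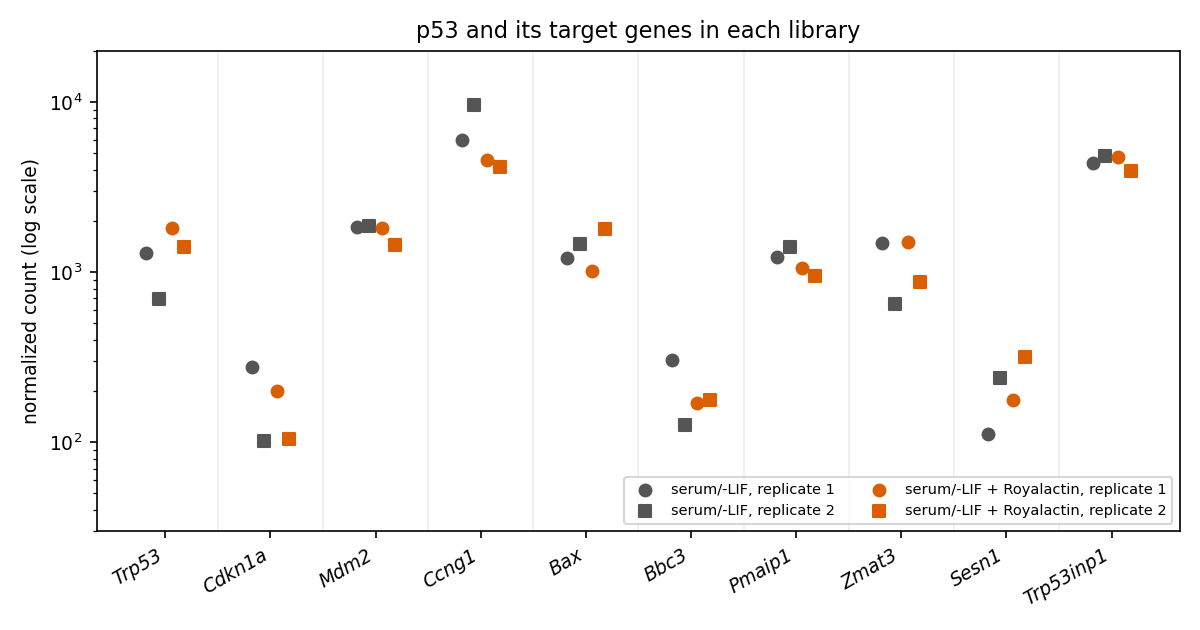
Normalized counts of the 10 members in each of the 4 libraries (log axis; grey, serum/-LIF; orange, serum/-LIF + Royalactin; circles, replicate 1; squares, replicate 2). Both Royalactin libraries lay above both serum/-LIF libraries for Trp53 and below them for Ccng1, Mdm2 and Pmaip1, and the cultures overlapped for the other 6.

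Royalactin was not accompanied by a difference in any member that passed the test over all genes. With limma on log2(normalized count + 1) and Benjamini-Hochberg adjustment over the 12993 genes with a mean of at least 10, a filter that all 10 members passed, 0 of 10 members had an adjusted p under 0.05, against 0.493% of all genes tested. At an unadjusted limma p under 0.05 the number was 1 of 10, Ccng1, against 9.34% of genes. None passed an unadjusted p under 0.05 with a change of at least 2-fold, limits taken from the methods of the study, against 7.13% of genes. Both Royalactin libraries lay above both serum/-LIF libraries for 1 member and below for 3, shares of 10 that stand beside 19.7% and 18.9% of genes. The median log2 fold change of the members was -0.14, beside -0.01 over all genes tested, and the median of its size without sign was 0.22, beside 0.40. With 2 libraries per culture the median standard error was 0.34 for the members and 0.44 for all genes.

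Trp53 had normalized counts of 1300 and 698 in serum/-LIF and 1804 and 1399 in serum/-LIF + Royalactin. The cultures did not overlap, the Royalactin pair being higher, and the nearest libraries of the cultures were serum/-LIF replicate 1 and Royalactin replicate 2. The means were 999 ± 426 and 1602 ± 286 (SD, n = 2), a 1.67-fold higher level with Royalactin (95% interval 0.997 to 2.79), at an adjusted p = 0.542 in limma (Benjamini-Hochberg, unadjusted p = 0.0513). A log2 difference at least as high as the 0.74 of Trp53 was seen in 13.8% of genes tested. The difference rested on serum/-LIF replicate 2 for its size, being 0.29 on the log2 scale without that library and 1.19 without serum/-LIF replicate 1. Trp53 lies on chromosome 11 at 69393861 to 69405375 of mm9, and 9.52% of the 75-base tiles of its exons also matched chromosome 17 with up to 2 mismatches, so that part of its count is uncertain. Its exons overlapped no other annotated gene in GENCODE, on either strand.

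Mdm2, the ubiquitin ligase that holds p53 down and the target that closes the feedback loop, was slightly lower in both Royalactin libraries. Its normalized counts were 1839 and 1865 in serum/-LIF and 1820 and 1446 with Royalactin. Royalactin replicate 1 was close to the serum/-LIF libraries, and Royalactin replicate 2 was the lowest. The log2 fold change was -0.19 with a 95% interval from -0.82 to 0.44 (adjusted p = 0.885 by limma and Benjamini-Hochberg), or 0.567 to 1.35 times the serum/-LIF level. Mdm2 is on chromosome 10 at 117125944 to 117147814.

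Cdkn1a encodes p21, the inhibitor of cyclin-dependent kinases through which p53 halts cells in G1. Its normalized counts were 275 and 102 in serum/-LIF and 199 and 105 in serum/-LIF + Royalactin, from 99 to 206 reads per library. Replicate 1 was the higher library in both cultures and the cultures overlapped, both Royalactin libraries lying between the serum/-LIF libraries. The log2 fold change was -0.21 (standard error 0.56, limma adjusted p = 0.94, Benjamini-Hochberg), with an interval of 0.374 to 1.99 times the serum/-LIF level. It was 0.50 without serum/-LIF replicate 1 and 0.24 without Royalactin replicate 2, so its direction depended on single libraries. The gene lies on chromosome 17 at 29227924 to 29237667.

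Ccng1, the gene for cyclin G1, a p53 target that recruits a phosphatase to Mdm2, had the lowest p-value of the members. Its normalized counts were 5983 and 9635 in serum/-LIF and 4571 and 4174 in serum/-LIF + Royalactin. Both Royalactin libraries were below both serum/-LIF libraries and close to each other, whereas the serum/-LIF libraries were far apart. The means were 7809 ± 2582 and 4372 ± 280 (SD, n = 2), 0.575 times the serum/-LIF level with Royalactin (95% interval 0.355 to 0.932), a log2 fold change of -0.80 with a standard error of 0.32. The limma p was 0.0276 without adjustment and 0.441 after Benjamini-Hochberg adjustment, so the difference did not pass over all genes, and 13.1% of genes tested had a log2 difference as low or lower. Without serum/-LIF replicate 2 it was -0.45, and without serum/-LIF replicate 1 it was -1.14. Ccng1 is on chromosome 11 at 40562054 to 40568813, and its exons are rich in A and T, with 40.8% G and C. A correction for base composition and exon length left the log2 fold change at -0.70 and the limma adjusted p at 0.112 (Benjamini-Hochberg), within a range of 0.00555 to 0.679 over the alternatives that keep all libraries.

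None of the 3 members through which p53 starts apoptosis passed the test. Bax, which perforates the outer mitochondrial membrane, had normalized counts of 1208 and 1453 in serum/-LIF and 1021 and 1790 with Royalactin. The serum/-LIF libraries lay between the Royalactin libraries, and the log2 fold change was 0.03 with an interval from -0.69 to 0.74 (adjusted p = 0.988 by limma and Benjamini-Hochberg). Its direction changed without Royalactin replicate 2 (-0.38) and without serum/-LIF replicate 1 (-0.10). Bbc3 and Pmaip1 encode PUMA and NOXA, BH3-only proteins that bind the BCL-2 guardians and so free Bax and Bak. Bbc3 had 305 and 127 normalized counts in serum/-LIF and 169 and 176 with Royalactin. The Royalactin libraries were close to each other and lay inside the serum/-LIF pair, and the log2 fold change of -0.19 (adjusted p = 0.939 by limma and Benjamini-Hochberg) was 0.44 without serum/-LIF replicate 1. Pmaip1 had 1233 and 1409 normalized counts in serum/-LIF and 1058 and 949 with Royalactin. Both Royalactin libraries were below both serum/-LIF libraries, at 1003 ± 77.5 against 1321 ± 124 (SD, n = 2), 0.76 times the serum/-LIF level with an interval of 0.489 to 1.18 (adjusted p = 0.735 by limma and Benjamini-Hochberg). Pmaip1 was below 0 on the log2 scale with each library left out, from -0.49 to -0.30. Bax lies at 52717065 to 52722268 and Bbc3 at 16894965 to 16903554 of chromosome 7, and Pmaip1 on chromosome 18 at 66618258 to 66625204.

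The remaining targets act on RNA, on metabolism and on autophagy. Zmat3, an RNA-binding zinc finger protein also called Wig1, had 1484 and 653 normalized counts in serum/-LIF and 1498 and 876 with Royalactin. The replicate 1 libraries of the cultures were nearly equal, while replicate 2 was lower in both cultures and the cultures overlapped. Its log2 fold change was 0.22 (adjusted p = 0.907, limma with Benjamini-Hochberg), and it was -0.37 without serum/-LIF replicate 2 and -0.17 without Royalactin replicate 1. Sesn1, the sestrin 1 gene, whose product restrains mTORC1, had 111 and 237 normalized counts in serum/-LIF and 178 and 315 with Royalactin, from 83 to 458 reads. Here replicate 2 was the higher library in both cultures. The log2 fold change of 0.54 had an interval from -0.53 to 1.62 (adjusted p = 0.794 by limma and Benjamini-Hochberg) and was -0.0004 without serum/-LIF replicate 1. Trp53inp1, a nuclear stress protein with a part in autophagy, was the steadiest of the abundant members, at 4374 and 4801 normalized counts in serum/-LIF and 4757 and 3937 with Royalactin. The cultures overlapped, and its log2 fold change of -0.08 had an interval from -0.71 to 0.55 (adjusted p = 0.956 by limma and Benjamini-Hochberg), and it was 0.054 without Royalactin replicate 2. Zmat3 is on chromosome 3 at 32233718 to 32264600, Sesn1 on chromosome 10 at 41530380 to 41628230 and Trp53inp1 on chromosome 4 at 11083578 to 11101526.

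**Figure D3:**
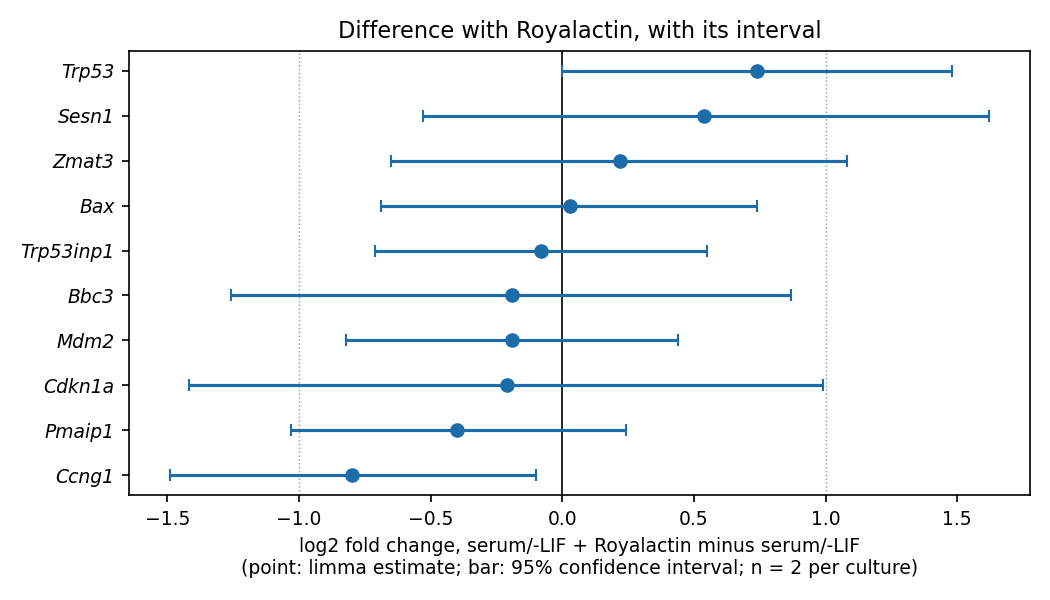
log2 fold change of each member between serum/-LIF + Royalactin and serum/-LIF (horizontal axis; points, limma estimates; bars, 95% confidence intervals; n = 2 per culture; dotted lines mark 2-fold). The interval of Ccng1, from -1.49 to -0.10, was the only one of the 10 that did not reach 0, and it is not adjusted for the number of genes.

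The members also differed between the replicates of a culture. Their median absolute log2 difference was 0.79 within serum/-LIF and 0.35 within serum/-LIF + Royalactin, beside 0.57 and 0.39 over all genes tested. For Cdkn1a, replicate 1 exceeded replicate 2 by 1.42 on the log2 scale in serum/-LIF and by 0.91 with Royalactin. For Zmat3 these values were 1.18 and 0.77, and for Trp53 they were 0.90 and 0.37. These 3 members were higher in replicate 1 of both cultures, as were 28.1% of genes tested. Sesn1 (-1.09 and -0.82) and Bax (-0.27 and -0.81) were higher in replicate 2 of both, as were 26.5% of genes, and the other 5 members went opposite ways. The Rn45s share given above was also higher in replicate 1 of both cultures, and its part in these differences was not tested.

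**Figure D4:**
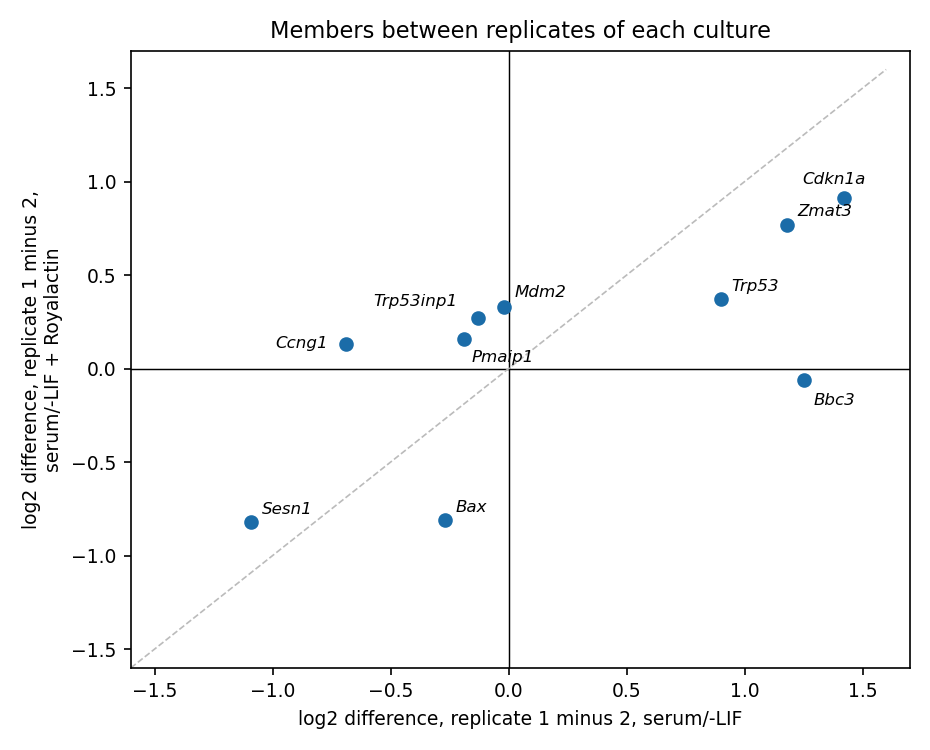
log2 difference between replicate 1 and replicate 2 of each member in serum/-LIF (horizontal axis) and in serum/-LIF + Royalactin (vertical axis), with a dashed line of equality. Cdkn1a, Zmat3 and Trp53 lie in the upper right, higher in replicate 1 of both cultures, and Sesn1 and Bax in the lower left.

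Across the 4 libraries, the tested genes nearest to Trp53 in centred log2 values were Crkl, Zscan20 and Sppl2b, at Euclidean distances of 0.07, 0.08 and 0.09. The levels of Crkl were 754 and 422 normalized counts in serum/-LIF and 1103 and 869 with Royalactin. Those nearest to Cdkn1a were Caskin2, Fbrsl1 and Tdrd7, at 0.05, 0.10 and 0.13, with Caskin2 at 218 and 80.7 in serum/-LIF and 157 and 86.7 with Royalactin. Of the 12993 genes tested, 134 lay within a distance of 0.3 of Trp53 and 33 within it of Cdkn1a. Each distance rests on only 4 libraries.

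The wider p53 pathway was described through gene lists. Of 21 regulators of p53, all of them tested, 0 passed an adjusted limma p under 0.05 (Benjamini-Hochberg) and 2 an unadjusted p under 0.05 (0.493% and 9.34% of all genes tested), with a median log2 fold change of 0.17. The Royalactin pair lay wholly above the serum/-LIF pair for 7 of these 21 and below for 1, beside the 19.7% and 18.9% of genes given above. The highest was Sirt1, a deacetylase that acts on p53, with 976 and 1135 normalized counts in serum/-LIF and 2245 and 1727 with Royalactin, 1.87 times the serum/-LIF level (95% interval 1.2 to 2.92, limma unadjusted p = 0.00955, Benjamini-Hochberg adjusted p = 0.306). Its groups did not overlap. The lowest was Rfwd2, the gene for the ubiquitin ligase COP1, which also targets p53, with a log2 fold change of -0.47 (adjusted p = 0.676 by limma and Benjamini-Hochberg). The other gene at an unadjusted p under 0.05 was Trp53bp1, a binding partner of p53 in the DNA damage response, named after its value was seen, with a log2 fold change of 0.73 (adjusted p = 0.513 by limma and Benjamini-Hochberg).

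Of 37 other p53 targets, 34 were tested, with 0 at an adjusted limma p under 0.05 (Benjamini-Hochberg), 7 at an unadjusted p under 0.05 (beside 0.493% and 9.34% of all genes tested) and a median log2 fold change of -0.32. Both Royalactin libraries were below both serum/-LIF libraries for 13 of the 34 and above for 7, beside 18.9% and 19.7% of all genes tested. At an unadjusted p under 0.05 and at least 2-fold, 1 was higher and 2 were lower, where 3.52% of genes were higher and 3.61% lower. The lowest was Perp, a desmosome protein that p53 induces in apoptosis, with 527 and 654 normalized counts in serum/-LIF and 175 and 206 with Royalactin. The groups were well apart, at 0.324 times the serum/-LIF level (95% interval 0.187 to 0.564, limma unadjusted p = 0.000679), but Perp too missed the threshold over all genes (Benjamini-Hochberg adjusted p = 0.0939). Phlda3, a p53-induced inhibitor of Akt, had 439 and 390 normalized counts in serum/-LIF and 130 and 295 with Royalactin (adjusted p = 0.454 by limma and Benjamini-Hochberg). Plk3, a stress-responsive kinase, went the other way, with 147 and 26.9 normalized counts in serum/-LIF and 187 and 178 with Royalactin (adjusted p = 0.532 by limma and Benjamini-Hochberg). The highest estimate was that of Aifm2, a log2 fold change of 2.41 (95% interval -1.09 to 5.92, adjusted p = 0.706 by limma and Benjamini-Hochberg). Aifm2 was listed at 0 in serum/-LIF replicate 1 and at 53.8 in replicate 2, with 28.2 and 52.3 with Royalactin, and the cultures overlapped. Its group means were 26.9 and 40.2. Fas, Gdf15 and Cd82 did not reach the mean of 10 and had at most 26 reads in a library.

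Among 15 genes of the BCL-2 family and the apoptosome, all tested, 0 passed an adjusted limma p under 0.05 (Benjamini-Hochberg) and 3 an unadjusted p under 0.05 (0.493% and 9.34% of all genes tested), with a median log2 fold change of -0.04. Bcl2, the founding inhibitor of apoptosis, had 166 and 115 normalized counts in serum/-LIF and 29.2 and 22.7 with Royalactin, 0.192 times the serum/-LIF level (95% interval 0.0709 to 0.522, limma adjusted p = 0.193, Benjamini-Hochberg). Bok, a relative of Bax, had 374 and 321 in serum/-LIF and 116 and 147 with Royalactin (adjusted p = 0.229 by limma and Benjamini-Hochberg). For both genes the groups did not overlap. The third was Apaf1, the scaffold of the apoptosome, named after its value was seen, with a log2 fold change of -0.76 (adjusted p = 0.454 by limma and Benjamini-Hochberg). Apaf1 is also among the other p53 targets and is counted there as well. Bmf, a BH3-only gene, was highest, with 134 and 63.1 normalized counts in serum/-LIF and 149 and 246 with Royalactin (adjusted p = 0.604 by limma and Benjamini-Hochberg).

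Among 11 relatives of the members by family, 10 were tested, with 0 at an adjusted limma p under 0.05 (Benjamini-Hochberg) and 2 at an unadjusted p under 0.05, Bok and Zmat4, beside 0.493% and 9.34% of all genes tested. Zmat4 had 84.3 and 42.4 normalized counts in serum/-LIF and 175 and 165 with Royalactin (adjusted p = 0.402 by limma and Benjamini-Hochberg). Zmat1 was listed at 28.1 and 26.9 in serum/-LIF and at 0 and 3.44 with Royalactin, between 0 and 26 reads (adjusted p = 0.558 by limma and Benjamini-Hochberg). Trp63, the gene for the p53 relative p63, had 0 reads in all 4 libraries. Of 6 other inhibitors of cyclin-dependent kinases, 4 were tested, 0 at an adjusted or an unadjusted limma p under 0.05 (Benjamini-Hochberg), beside 0.493% and 9.34% of all genes tested. Both Royalactin libraries were below both serum/-LIF libraries for 2 of these 4 and above for 0, beside 18.9% and 19.7% of all genes tested. Cdkn2a, the gene for Arf and p16, of which Arf blocks Mdm2, was low in every library, at 22.7 and 12.4 normalized counts in serum/-LIF and 41.2 and 20.7 with Royalactin, and Cdkn2b was at 32.1 and 18.6 against 5.03 and 12.4. Of 10 cell cycle genes that p21 is known to repress through the DREAM complex, 0 passed an adjusted or an unadjusted limma p under 0.05. The shares of all genes tested were 0.493% and 9.34%, so a list of this size could hold 0 without differing from them. The median log2 fold change of these 10 genes was 0.00, with a range from -0.49 (Cdk1) to 0.31 (Aurkb).

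**Figure D5:**
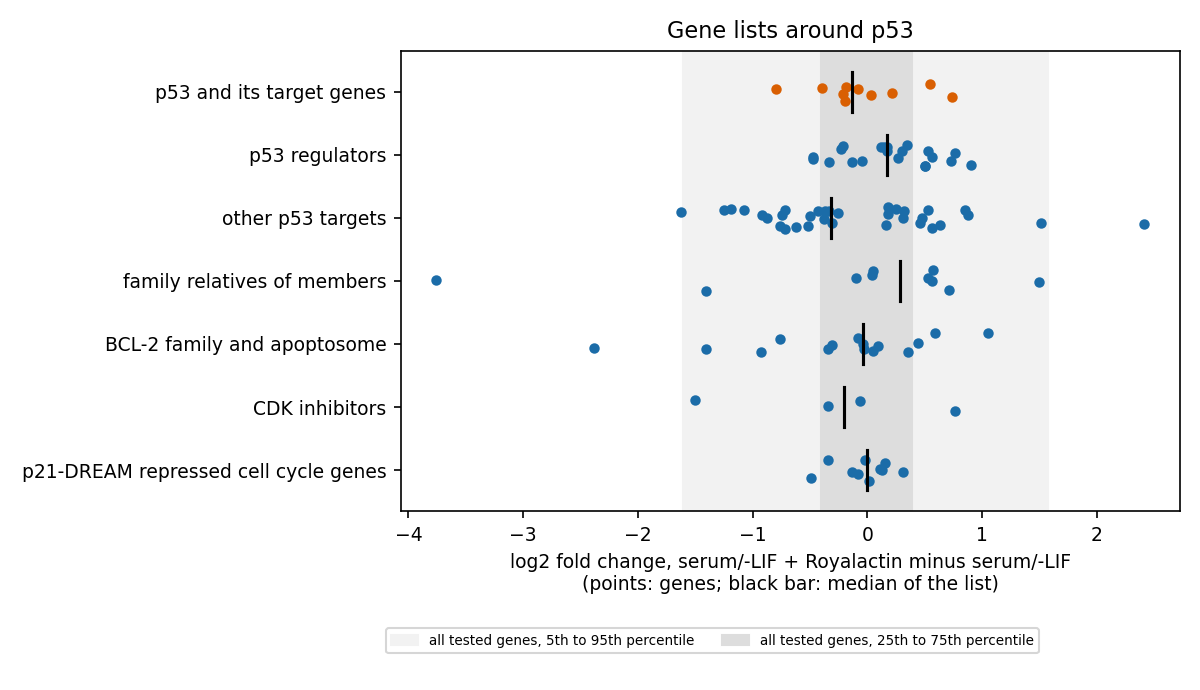
log2 fold change between serum/-LIF + Royalactin and serum/-LIF of the tested genes of each list (horizontal axis; points, genes; black bars, list medians; shaded bands, the middle of all tested genes). The medians ran from -0.32 for the other p53 targets to 0.29 for the family relatives, all within the darker band.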

How the data were processed

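The authors aligned the RNA-seq reads to mm9 with Tophat, used HTSeq-count for the reads of each gene, and deposited normalized counts, that is read counts over a DESeq size factor per library, which form a signal in proportion to reads. The strand setting and gene annotation used are not given in the sources used here. Groups and replicates were taken from the sample titles. All values were whole multiples of the value of 1 read to within 0.01 read, and reads were obtained by dividing by it. No count test was run, because in 1 library the value of 1 read, 1.01, is so near 1 that low normalized counts and reads are hard to tell apart. Differences were tested with limma 3.58.1 in R 4.3.3 on log2(normalized count + 1) for genes with a mean of at least 10, two-sided, with a variance trend and Benjamini-Hochberg adjustment over all genes tested. The added 1 shrinks the fold changes of weak genes, whereas a 0 in 1 library can enlarge them relative to the group means, as for Aifm2. The members and lists were chosen with earlier results of these data known. Named are all members, genes of the pathway lists with an unadjusted p under 0.05 and at least 2-fold change, the highest and lowest gene of each pathway list, and the 3 genes nearest to Trp53 and to Cdkn1a. Marker genes, Trp53bp1 and Apaf1 were named outside this rule. Pidd1 and Tigar were found under older symbols. Exon lengths, base composition and positions come from GENCODE on mm9, for 94.2% of symbols. Exon tiles of 75 bases, set every 25 bases, were searched in mm9 with blastn. The limma fit, with and without the replicate block, was tested on simulated counts, whereas the lowess correction and the sequence searches were not. The simulated libraries were drawn independently, with no effect shared by same-numbered replicates. They therefore could not show whether the block is apt for these data. Alternatives covered pseudocounts, filters, scalings, the trend, the replicate block, a lowess correction for base composition and exon length, and each library left out. ATAC-seq samples were not analysed here.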

Additional observations from a re-analysis of the deposited data

How the results depend on the processing

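The number of genes past an adjusted limma p of 0.05 (Benjamini-Hochberg), 64 as reported, became 32 when the pseudocount was 0.1, 34 when every gene above 0 was tested, 99 when the minimum mean was 50, 254 with the correction for GC content and length, 391 with the replicate block and 797 with both. Leaving out the trend gave 0 (1135 at an unadjusted p under 0.05), and with any 1 library left out it ranged from 0 to 0, with 428 to 2496 genes at an unadjusted p under 0.05. In those fits the lone library was assumed to vary like the other culture. The number of members past the adjusted p was 0 as reported. With the replicate block and the correction together it was 2, beside 797 of the 12993 genes tested. These were Trp53 (adjusted p = 0.0441) and Ccng1 (adjusted p = 0.00555), by limma and Benjamini-Hochberg. It was 0 under every other alternative that keeps all libraries, the replicate block alone included. In the fits that keep all libraries, 0 to 2 members and 1043 to 2259 genes had an unadjusted limma p under 0.05. At an unadjusted limma p under 0.05 and at least 2-fold, 0 members passed under every alternative that keeps all libraries. Without serum/-LIF replicate 1, the log2 fold change was 1.19 for Trp53 and -1.14 for Ccng1. What causes these shifts was not tested. Same-numbered replicates deviated together with a correlation of 0.0851 across genes, and the labels tie the numbers to no shared batch. Whether they share more than a number was not tested further.

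Of 150 values of members under alternatives, 139 kept their direction and side of the threshold, 2 passed it and 9 reversed, all 9 with a library left out. With 1 library left out, the log2 fold change ranged from -0.92 to 0.50 for Cdkn1a, -0.38 to 0.43 for Bax, -0.82 to 0.44 for Bbc3, -0.37 to 0.81 for Zmat3, -0.0004 to 1.09 for Sesn1 and -0.22 to 0.054 for Trp53inp1. No scaling reversed a member. With 2 libraries per culture, the interval of Cdkn1a spans 0.374 to 1.99 times the serum/-LIF level.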
